A study of Mus musculus with 6 samples.

Results

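A group of 8 genes that mark the nervous system of the gut, S100b, Gfap, Sox10, Ret, Elavl4, Uchl1, Tubb3 and Vip, was examined in colorectal tumors with and without Trp53 in the epithelium. They were picked by name, as markers of enteric glia (S100b, Gfap and Sox10) and of enteric neurons and their precursors (Ret, Elavl4, Uchl1, Tubb3 and Vip), and all 8 of them are among the 54167 genes of the expression table. RNA came from 6 tumors, taken here as from different mice, 3 from Trp53fl/fl mice and 3 from VP (Pvillin-Cre + Trp53fl/fl) mice. The mice were males, the labels give their strain as C57BL/6J, and both genotypes carried floxed Trp53 alleles, which stay intact without Cre. At 8 weeks of age both genotypes received the carcinogen azoxymethane (AOM) at 10 mg/kg and then cycles of 7 days of 2.5% dextran sulfate sodium (DSS), a colitis-inducing agent, and tumors alone were taken on day 98. In VP mice the villin promoter restricts Cre to the intestinal epithelium, so neurons, glia, muscle, stroma and immune cells of the same tumors keep their Trp53. Normal colon was not analysed here. Levels are given as TPM, a measure of transcript abundance scaled for transcript length and for the total of each library, so that levels can be compared between genes.

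The enteric nervous system is a network of neurons and glia that arises from neural crest cells migrating along the embryonic gut. Its cell bodies lie in a plexus between the muscle layers and in another in the submucosa, from where fibers reach muscle, vessels and mucosa, and it controls motility, secretion and blood flow. Precursors need the receptor tyrosine kinase RET, which answers to GDNF-family ligands, and the transcription factor SOX10, which mature glia retain while neurons lose it. In bulk tumor RNA fewer cells of a type and less RNA per cell cannot be told apart, and which cells carried a transcript was not measured.

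Trp53 itself was at 99.3 to 147.45 TPM in Trp53fl/fl tumors, against 27.83 to 38.45 TPM in VP tumors, so the targeted gene followed the labels (log2 difference -1.87, limma adjusted p = 0.0207). The 6 columns summed to 999964 to 1000067 TPM, and 14857 to 15234 genes reached 1 TPM in a tumor. The number of reads is unknown, so the counting error of a low TPM is unknown too. Differences were taken as VP minus Trp53fl/fl on the log2(TPM + 1) scale, on which differences of low genes appear smaller than they are. The limma test covered the 15117 genes that reached 1 TPM in 3 or more tumors. Ret, Uchl1, Tubb3 and Vip passed this filter, while S100b, Gfap, Sox10 and Elavl4 did not and are described by their levels alone.

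The 8 genes fell into a group near 0 and a group at a few TPM. Ret had the highest mean over the 6 tumors, 10.45 TPM, followed by Uchl1 at 9.18, Vip at 7.66 and Tubb3 at 4.42 TPM. Neighbors in this order overlapped across tumors, and Ret was above Uchl1 in 3 of the 6. Then came a gap, since the lowest Tubb3 value, 2.82 TPM, lay above the highest Gfap value, 1.11 TPM. Gfap averaged 0.475 TPM, Sox10 0.19, Elavl4 0.17 and S100b 0.168 TPM, again with overlapping ranges. Among the 27871 genes above 0 in any tumor, the means of Ret and S100b stood at the percentiles 67.6 and 29.6. Hence the 3 glial genes and the neuronal RNA-binding protein gene Elavl4 had little signal, down to 0.02 TPM for Elavl4 in VP replicate 3.

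Between the genotypes none of the 4 tested genes passed an adjusted p-value of 0.05, which 0.165% of all tested genes did (0.0794% higher and 0.086% lower in VP tumors). None had an unadjusted p-value under 0.05, as 12.5% of all tested genes had (4.51% higher and 8.0% lower). For none of the 8 genes were the genotypes separated without overlap, as they were for 19.3% of all genes tested. The median log2 difference of the 4 tested genes was 0.26, with 3 positive estimates and 1 negative, where 39.2% of all tested genes were positive. The confidence interval of Vip, -1.09 to 2.57, was the widest of the 4. A p-value above the threshold does not show that the genotypes were alike. In the 5 lists of the nervous system together, 80 genes, 42 were below the filter and none of the 38 tested genes passed. At an unadjusted p-value under 0.05, 5 had a positive and 4 a negative difference, and the genotypes did not overlap for 10.

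**Figure D1:**
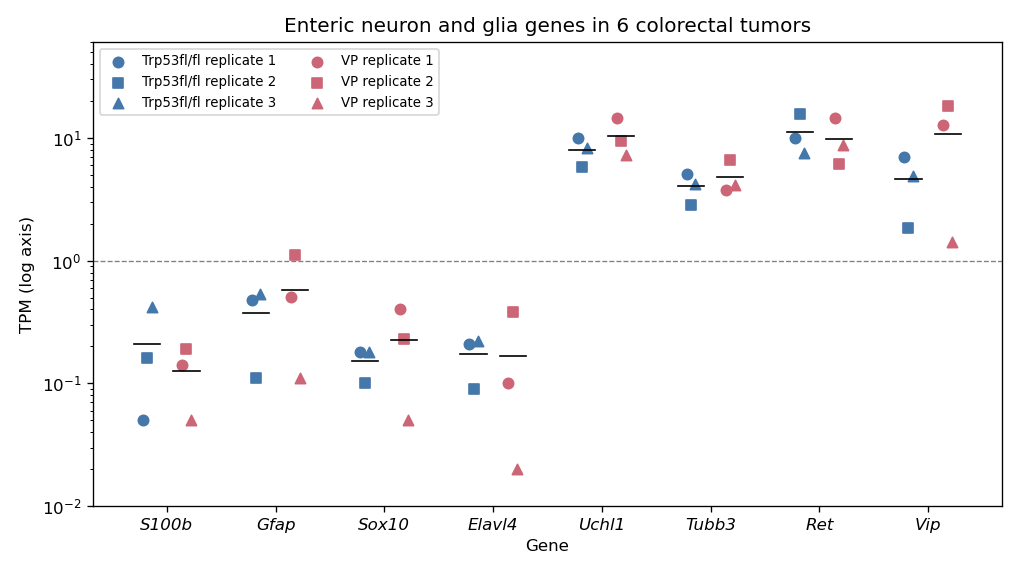
TPM of the 8 genes on a log axis in the 3 Trp53fl/fl tumors (blue) and the 3 VP tumors (red), with a symbol for each replicate, black bars for the genotype means and a dashed line at 1 TPM. S100b, Sox10 and Elavl4 lay under the line in all 6 tumors and Gfap in all but VP replicate 2, whereas Uchl1, Tubb3, Ret and Vip lay above it, and the genotypes overlapped for every gene.

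**Figure D2:**
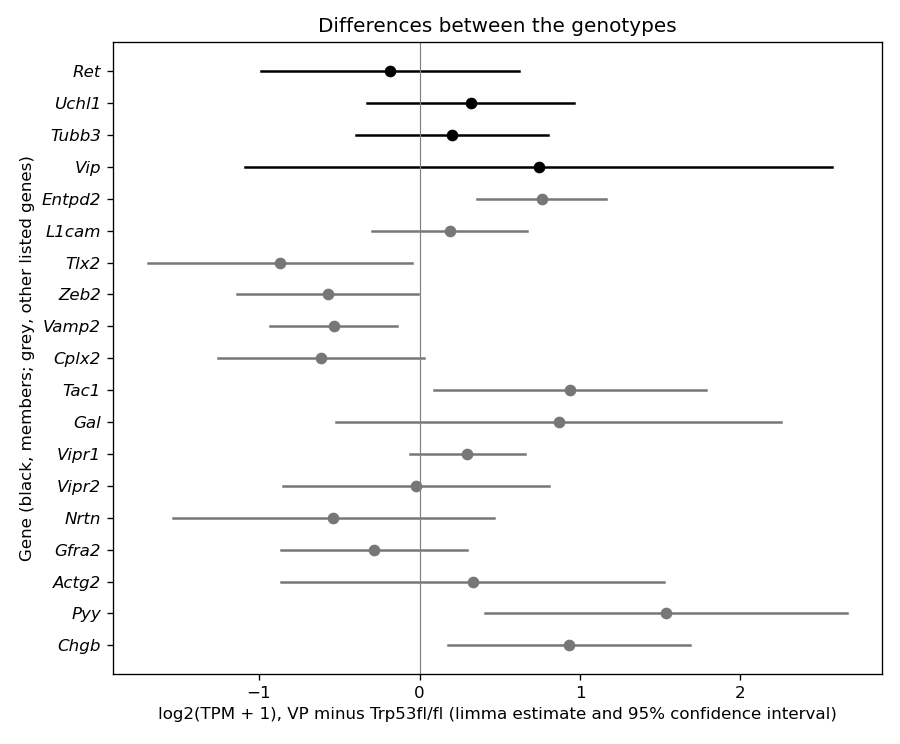
Difference between the genotypes, VP minus Trp53fl/fl on the log2(TPM + 1) scale, as the limma estimate (point) and its 95% confidence interval (line, n = 3 and 3) for the 4 tested genes (black) and the other tested genes given in the text (grey). The intervals of Ret, Uchl1, Tubb3 and Vip all include 0, and that of Vip is the widest of the 4.

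S100b (ENSMUSG00000033208, chromosome 10) encodes a calcium-binding protein of glia and Schwann cells. Its level was 0.05, 0.16 and 0.42 TPM in the Trp53fl/fl tumors and 0.14, 0.19 and 0.05 TPM in the VP tumors. The highest value and one of the joint lowest values thus came from the same genotype. Gfap (ENSMUSG00000020932, chromosome 11), the intermediate filament gene of astrocytes and of a part of the enteric glia, was at 0.48, 0.11 and 0.53 TPM in the tumors of Trp53fl/fl mice and 0.51, 1.11 and 0.11 TPM in those of VP mice. VP replicate 2 was the one tumor above 1 TPM, and VP replicate 3 shared the lowest value with Trp53fl/fl replicate 2. Sox10 (ENSMUSG00000033006, chromosome 15), the transcription factor of neural crest and glia, was at 0.18, 0.10 and 0.18 TPM in the Trp53fl/fl tumors. In the VP tumors it was at 0.40, 0.23 and 0.05 TPM, which spans the Trp53fl/fl values on both sides. The genotype means were 0.21 ± 0.19 against 0.127 ± 0.071 TPM for S100b, 0.373 ± 0.229 against 0.577 ± 0.503 TPM for Gfap and 0.153 ± 0.0462 against 0.227 ± 0.175 TPM for Sox10 (SD, n = 3, Trp53fl/fl first). For each of these genes the difference of the means was smaller than the larger of the SDs.

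The rest of the glial list gave little more signal for the defining genes. Of its 17 genes 7 stayed under 1 TPM in all tumors. The 8 tested genes included broadly expressed ones. The sum of the list, 71.7 to 93.9 TPM in Trp53fl/fl and 80.2 to 96.2 TPM in VP tumors, was carried by Erbb3, a neuregulin receptor that epithelium expresses too, at 38.95 to 52.95 TPM, and by the myelin gene Mbp, which also has transcripts in blood cells, at 17.43 to 22.84 TPM. Entpd2, which encodes an ATP-hydrolyzing ectoenzyme found on enteric glia, had the lowest p-value of the glial list. It was at 7.15, 8.28 and 6.58 TPM in the Trp53fl/fl tumors and 15.80, 12.94 and 10.90 TPM in the VP tumors. All VP values lay above all Trp53fl/fl values, with a log2 difference of 0.76 ± 0.17 (SE, 95% confidence interval 0.36 to 1.16), and its limma adjusted p-value over all genes was 0.243. The genotypes overlapped for Sox10 and S100b. No gene of the list passed, and the median log2 difference of its tested genes was 0.25, beside -0.07 for all genes tested.

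Elavl4 (ENSMUSG00000028546, chromosome 4) encodes HuD, an RNA-binding protein of differentiated neurons. It was at 0.21, 0.09 and 0.22 TPM in Trp53fl/fl tumors, against 0.10, 0.38 and 0.02 TPM in VP tumors. The VP tumors held both the highest and the lowest value, and the means were 0.173 ± 0.0723 and 0.167 ± 0.189 TPM (SD, n = 3). Uchl1 (ENSMUSG00000029223, chromosome 5), which encodes the neuronal ubiquitin hydrolase PGP9.5 used to stain nerve fibers, was at 9.92, 5.81 and 8.21 TPM in the Trp53fl/fl tumors. In the VP tumors Uchl1 was at 14.44, 9.42 and 7.27 TPM. The highest value was in VP replicate 1, yet VP replicate 3 lay below 2 of the Trp53fl/fl tumors. The log2 difference of Uchl1 was 0.32 ± 0.27 (SE, 95% confidence interval -0.33 to 0.96, limma adjusted p = 0.634), and it lay between 0.0747 without VP replicate 1 and 0.525 without VP replicate 3. Tubb3 (ENSMUSG00000062380, chromosome 8), the gene of neuronal class III beta-tubulin, was at 5.11, 2.82 and 4.18 TPM in the tumors of Trp53fl/fl mice and 3.76, 6.55 and 4.12 TPM in those of VP mice. Here VP replicate 2 was highest and the other VP tumors lay within the Trp53fl/fl range. Its log2 difference was 0.20 ± 0.25 (SE, 95% confidence interval -0.40 to 0.80, limma adjusted p = 0.754), and -0.00235 without VP replicate 2.

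Uchl1 and Tubb3 thus had different tumors at the top, VP replicate 1 for Uchl1 and VP replicate 2 for Tubb3, and Elavl4 was far below both. Of the 16 genes for neuronal structure and RNA binding, 6 were under 1 TPM in all tumors and 7 were tested. None of the 7 passed the adjustment or had an unadjusted p-value under 0.05, and their median log2 difference was 0.11. L1cam, an adhesion molecule of axons, had the highest mean of the list, with 11.41, 12.81 and 11.50 TPM in the Trp53fl/fl tumors and 13.53, 18.38 and 10.24 TPM in the VP tumors. Its log2 difference was 0.19 (limma adjusted p = 0.713). The sum of the list was 40.1, 30.7 and 36.6 TPM in the Trp53fl/fl tumors and 46.9, 50.8 and 28.4 TPM in the VP tumors, so that VP replicates 1 and 2 were above and VP replicate 3 below all Trp53fl/fl tumors. Prph, the gene of the peripheral neurofilament peripherin, was chosen after its values were seen. It was at 1.79, 0.27 and 4.27 TPM in the Trp53fl/fl tumors and 4.01, 3.26 and 0.09 TPM in the VP tumors, low in Trp53fl/fl replicate 2 and VP replicate 3.

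Relatives of these genes that many cell types use were far more abundant, as the plot of the gene families shows. Elavl1, which encodes the ubiquitous HuR, averaged 45.0 TPM and was 112 to 2390 times the level of Elavl4 in the same tumor. The beta-tubulin genes Tubb5 and Tubb4b averaged 454 and 514 TPM, at least 69.6 and 86.6 times Tubb3. Other beta-tubulin genes lay closer to Tubb3 but above it in all 6 tumors. Tubb2b averaged 48.6 TPM, 3.24 to 17.8 times Tubb3, and Tubb4a 45.5 TPM, 3.85 to 17.0 times Tubb3. Uchl3 averaged 61.3 TPM, 3.6 to 11.3 times Uchl1. In the glial set, Sox9, a SOX10 relative of epithelial crypts, averaged 57.9 TPM, at least 147 times Sox10. Vim, the intermediate filament gene of mesenchyme, averaged 516 TPM, at least 267 times Gfap, and S100a6 averaged 3090 TPM, at least 6770 times S100b. Reads shared between such relatives were checked with transcripts of GENCODE M21. No stretch of 100 bases in S100b, Gfap, Sox10, Ret, Elavl4, Tubb3 or Vip recurred in a transcript of another gene. In Uchl1 12.3% of such stretches lay opposite its antisense gene Uchl1os, which was listed at 0 TPM in all 6 tumors. Whether the reads were counted by strand is not given in the sources used here, so reads of that pair cannot be told apart where the genes overlap. In the annotation S100b also overlaps Dip2a on the opposite strand and Tubb3 overlaps Gm20388 on the same strand, without a shared stretch of that length. Dip2a was at 10.83 to 14.36 TPM and Gm20388 at 24.21 to 34.37 TPM, above S100b and Tubb3 in all 6 tumors. Whether reads of these pairs were mixed was not tested.

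**Figure D3:**
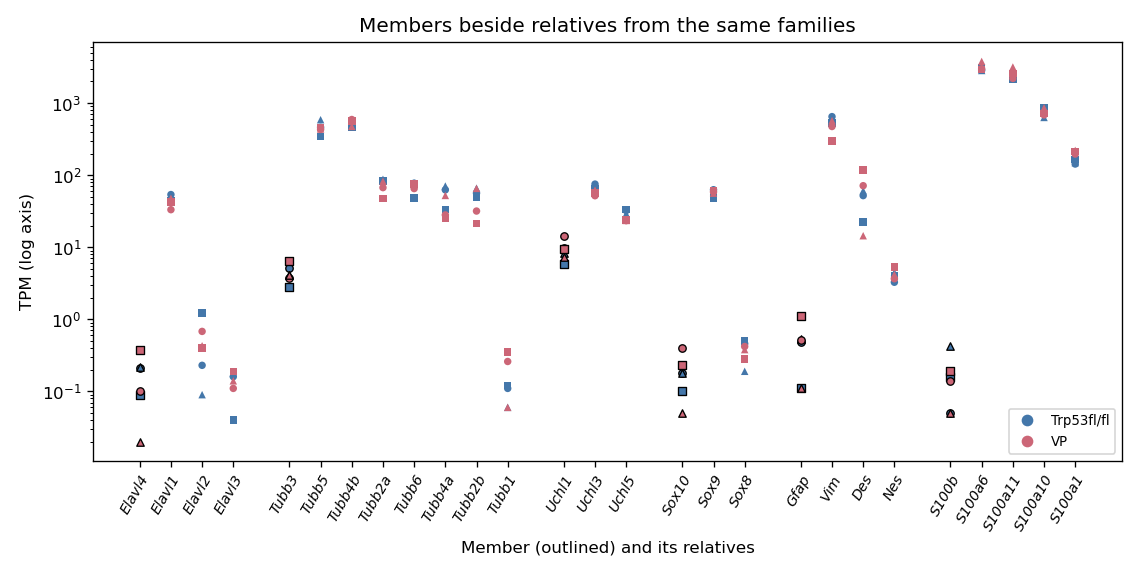
TPM on a log axis of 6 of the 8 genes (black outline) beside relatives of the same families, with Trp53fl/fl tumors in blue and VP tumors in red and 1 symbol per tumor. Elavl1, Tubb5, Tubb2b, Tubb4a, Uchl3, Sox9, Vim and S100a6 lay above the outlined gene of their family in all 6 tumors. Elavl2, Elavl3 and Sox8 were near 0 like Elavl4 and Sox10.

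Ret (ENSMUSG00000030110, chromosome 6), the receptor that neural crest precursors need to colonize the gut, was the most abundant of the 8 genes. It was at 10.03, 15.78 and 7.54 TPM in Trp53fl/fl tumors, against 14.40, 6.13 and 8.79 TPM in VP tumors. The highest values came from Trp53fl/fl replicate 2 and VP replicate 1, and the lowest from VP replicate 2, where Vip and Tubb3 were highest. The log2 difference of Ret was -0.19 ± 0.34 (SE, 95% confidence interval -0.99 to 0.62, limma adjusted p = 0.833). It changed sign when Trp53fl/fl replicate 2 or VP replicate 2 was left out, to 0.078 and 0.076.

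RET signals with a ligand and a GPI-anchored co-receptor. Gdnf, the ligand of enteric precursors, was at 0.47, 0.35 and 0.39 TPM in the tumors of Trp53fl/fl mice and 0.35, 0.17 and 0.17 TPM in those of VP mice. Its co-receptor gene Gfra1 was at 0.39 to 1.5 TPM. Nrtn, the ligand that sustains enteric neurons, was at 6.59, 1.69 and 3.82 TPM in the Trp53fl/fl tumors and 3.49, 2.31 and 1.16 TPM in the VP tumors (log2 difference -0.54, limma adjusted p = 0.61). The log2 difference of Nrtn was -0.18 without Trp53fl/fl replicate 1, -0.93 without Trp53fl/fl replicate 2 and -0.26 without VP replicate 3. Gfra2, the co-receptor of Nrtn, was at 2.09, 1.08 and 2.16 TPM against 1.01, 1.69 and 1.08 TPM (log2 difference -0.28, limma adjusted p = 0.637). Ret lay above both co-receptor genes in all 6 tumors. Gfral, the hindbrain receptor of GDF15, was listed at 0 in all 6 tumors. Of the 11 genes of this list, Ret included, 6 were tested. All 6 had a negative estimate with a median of -0.24, and none passed the adjustment or had an unadjusted p-value under 0.05. Over all tested genes 39.2% of estimates were positive, with a median of -0.07. The pathway of endothelins, which also guides neural crest cells, had 5 genes, all of them tested and none called, with a median log2 difference of 0.05. Ece1, which encodes the endothelin-converting enzyme, was at 62.65, 180.76 and 53.96 TPM in Trp53fl/fl tumors, against 139.11, 90.67 and 53.39 TPM in VP tumors. Like Ret it was highest in Trp53fl/fl replicate 2 and VP replicate 1.

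Among the 10 transcription factors of enteric neurons and their precursors, 4 were under 1 TPM in all tumors. Tlx2, a homeobox gene of enteric neurons, was at 3.58, 3.87 and 3.43 TPM in the Trp53fl/fl tumors and 2.30, 0.42 and 2.46 TPM in the VP tumors. The genotypes did not overlap, as for 19.3% of all tested genes, and at a log2 difference of -0.87 its limma adjusted p-value was 0.384. Without VP replicate 2 the log2 difference of Tlx2 was -0.45. Zeb2, a factor of neural crest and also of mesenchyme and leukocytes, was at 6.44 to 11.59 TPM in the Trp53fl/fl and at 4.18 to 5.46 TPM in the VP tumors (log2 difference -0.57, limma adjusted p = 0.394), with a log2 difference of -0.32 without Trp53fl/fl replicate 2. The median log2 difference of the 5 tested factors was -0.56, beside -0.07 for all genes tested. Of the 5 factors 2, Tlx2 and Zeb2, were lower in VP tumors at an unadjusted limma p-value under 0.05, as 8.0% of all tested genes were.

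Genes of synaptic vesicles gave no common direction. Of 16 genes 9 were tested, 4 with a positive and 5 with a negative estimate, and none passed. Vamp2, a vesicle SNARE that many secretory cells share, was at 34.72, 29.35 and 36.59 TPM in Trp53fl/fl tumors, against 28.52, 19.84 and 20.81 TPM in VP tumors. These values did not overlap, as for 19.3% of all tested genes (log2 difference -0.53, limma adjusted p = 0.317). Cplx2, which encodes complexin 2, was at 11.15 to 20.74 TPM in the Trp53fl/fl and at 8.11 to 13.86 TPM in the VP tumors (log2 difference -0.62, limma adjusted p = 0.412).

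Vip (ENSMUSG00000019772, chromosome 10) encodes vasoactive intestinal peptide, which enteric neurons release to relax smooth muscle, widen vessels and drive secretion. Its level was 6.98, 1.86 and 4.91 TPM in the Trp53fl/fl tumors and 12.63, 18.13 and 1.42 TPM in the VP tumors. VP replicates 1 and 2 were above and VP replicate 3 below every Trp53fl/fl tumor, and the highest value was 12.8 times the lowest, against 2.32 to 2.57 times for Tubb3, Uchl1 and Ret. The means were 4.58 ± 2.58 and 10.7 ± 8.52 TPM (SD, n = 3), and the log2 difference was 0.74 ± 0.78 (SE, 95% confidence interval -1.09 to 2.57, limma adjusted p = 0.699). This estimate depended on single tumors. Without VP replicate 3 the log2 difference of Vip was 1.65 (95% confidence interval 0.59 to 2.72, limma adjusted p = 0.267), and without VP replicate 2 it was 0.16 (limma adjusted p = 0.955).

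The sequence before the Vip start site is shown because Vip varied most among the 4 tested genes and, among the genes with a sequence here, alone held the TATA-like letters TATAAA and the letters TGACGTC, the core of the cAMP response element known from this gene. These are the 250 bases before the RefSeq start on the plus strand of GRCm38.p6, chr10:5638968-5639217, with both motifs in capitals.
Vip: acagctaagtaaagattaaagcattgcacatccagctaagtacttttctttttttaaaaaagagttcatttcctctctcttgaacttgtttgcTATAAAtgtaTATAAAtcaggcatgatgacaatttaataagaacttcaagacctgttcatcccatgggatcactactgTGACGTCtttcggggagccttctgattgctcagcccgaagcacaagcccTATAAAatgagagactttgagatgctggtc
TATAAA lay at -157 to -152, -147 to -142 and -30 to -25 and TGACGTC at -79 to -73, counted from the start site. Searched on both strands in 32851 windows of 250 bases, TATAAA occurred in 12.4% and TGACGTC in 2.78%. The motifs did not overlap each other in the Vip window. RefSeq windows were found for 6 of the 8 genes, not for Ret and Sox10. The consensus for 1 of the paired 10-base units of a p53 response element occurred at -169 to -160 in the Vip window, at -158 to -149 in that of Tubb3 and at -58 to -49 in 1 of the 4 windows of Elavl4, and in 7.13% of all windows. CCAAT, which 33.8% of all windows held, occurred in windows of S100b, Tubb3 and Elavl4, and of the SOX-type letters ACAATG (10.7%) and ACAAAG (16.5%) the first occurred in Tubb3 and Elavl4 and the second in none of the 6 genes. The windows of Gfap and Uchl1 held none of the letters searched. A match is a description of letters and not a site.

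VIP acts on the receptors VPAC1 and VPAC2. Vipr1, the VPAC1 gene that epithelium expresses, was at 35.48, 50.19 and 38.17 TPM in the tumors of Trp53fl/fl mice and 54.46, 50.53 and 46.65 TPM in those of VP mice (log2 difference 0.30, limma adjusted p = 0.451). Vipr2, the VPAC2 gene of smooth muscle, was at 0.84, 0.96 and 2.28 TPM in the Trp53fl/fl tumors and 2.37, 1.06 and 0.62 TPM in the VP tumors (log2 difference -0.02, limma adjusted p = 0.984). Adcyap1r1, the gene of the PAC1 receptor, which prefers the related peptide PACAP, was at 0.15 to 1.04 TPM. Vipr1 was thus above Vipr2 in all 6 tumors, and neither followed the order of the tumors seen for Vip.

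Of the 21 genes of transmitters and neuropeptides, 10 were under 1 TPM in all tumors, and 9 were tested. Without Vip, 8 were tested, of which 7 had a positive and 1 a negative estimate, with a median log2 difference of 0.56. Over all tested genes 39.2% of estimates were positive, with a median of -0.07. None of the 8 passed the adjustment. At an unadjusted limma p-value under 0.05, 3 were higher in VP tumors, as 4.51% of all tested genes were. Tac1, the gene of the excitatory peptide substance P, had the highest level. It was at 15.06, 11.13 and 15.05 TPM in Trp53fl/fl tumors, against 36.13, 37.95 and 14.20 TPM in VP tumors. As with Vip, VP replicates 1 and 2 stood above the other 4 tumors, and VP replicate 3 lay within the Trp53fl/fl range (log2 difference 0.94 ± 0.36, SE, limma adjusted p = 0.369). Gal, the gene of the neuropeptide galanin, was at 1.80, 0.82 and 2.45 TPM in the tumors of Trp53fl/fl mice and 3.65, 10.18 and 1.05 TPM in those of VP mice (log2 difference 0.87 ± 0.59, SE, limma adjusted p = 0.556). The log2 difference of Gal was 0.25 without VP replicate 2 and 1.47 without VP replicate 3. The sum of the 20 genes without Vip was 39.8, 28.7 and 41.0 TPM in the Trp53fl/fl tumors and 77.2, 90.09 and 35.55 TPM in the VP tumors. Nos1 and Chat, which mark single neuron classes and were chosen after their values were seen, were low. Nos1, the nitric oxide synthase of inhibitory motor neurons that often also contain VIP, was at 0.52, 0.18 and 0.38 TPM in the Trp53fl/fl tumors and 1.19, 1.04 and 0.14 TPM in the VP tumors, with the VP tumors on both sides of the Trp53fl/fl range. Chat, the enzyme of acetylcholine synthesis, did not exceed 0.15 TPM.

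The tumors that were high or low in Vip were also high or low in smooth muscle genes, as the plot of single genes by tumor shows. The summed level of the 10 smooth muscle genes was 722.5, 519.6 and 856 TPM in the Trp53fl/fl tumors and 910.1, 1398 and 441.5 TPM in the VP tumors. Of these 10 genes 9 were highest in VP replicate 2 and lowest in VP replicate 3, a pattern that 2.49% of all tested genes had, and 6 had VP replicates 1 and 2 above and VP replicate 3 below all Trp53fl/fl tumors, as 1.79% of all tested genes did. Vip had both patterns. Actg2, the enteric smooth muscle actin, was at 159.09, 98.38 and 174.71 TPM in Trp53fl/fl tumors, against 200.94, 344.30 and 78.79 TPM in VP tumors (log2 difference 0.33, limma adjusted p = 0.799). Synm, the intermediate filament gene of muscle and chosen after its values were seen, had the tumors in the same order as Vip, with 4.74, 3.30 and 4.37 TPM against 7.17, 7.81 and 1.97 TPM. Myocd, which encodes the coactivator of smooth muscle genes, was the exception among the 10. It was at 1.35, 2.05 and 2.71 TPM against 0.68, 0.66 and 1.63 TPM. The part of the muscle content in the Vip values was not tested.

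**Figure D4:**
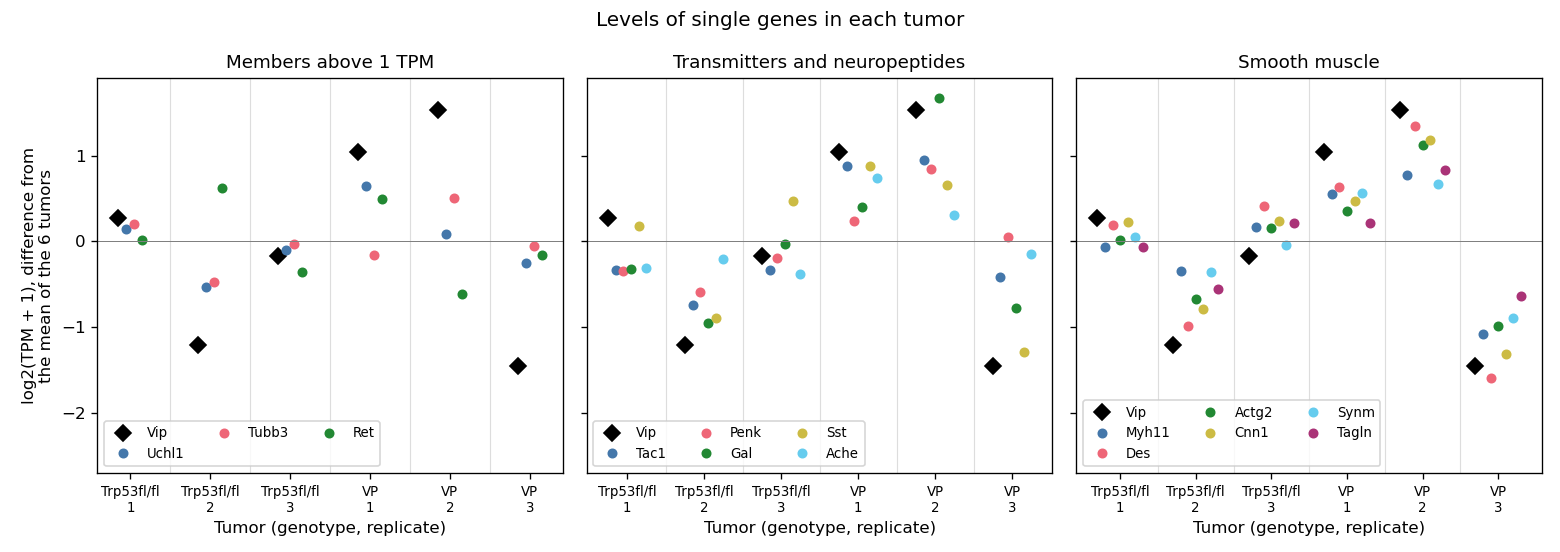
Level of single genes in each of the 6 tumors as log2(TPM + 1) minus that gene's mean over the tumors, with Vip as a black diamond in each panel beside Uchl1, Tubb3 and Ret (left), other transmitter genes (middle) and smooth muscle genes (right). Vip and the smooth muscle genes shown were above their mean in VP replicates 1 and 2 and below it in VP replicate 3, whereas Ret was highest in Trp53fl/fl replicate 2.

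Markers of other cell types were measured beside them. Enteroendocrine cells, which share vesicle genes and some peptides with neurons, had a summed marker level of 165.1, 108.4 and 393.2 TPM in the Trp53fl/fl tumors and 476.7, 622 and 346.1 TPM in the VP tumors over 11 genes. Pyy, the gene of peptide YY, made up most of it, with 111.03, 67.36 and 272.37 TPM against 390.91, 473.39 and 273.76 TPM (log2 difference 1.54 ± 0.48, SE, limma adjusted p = 0.317). Chgb, which encodes a granin that neurons also contain, was at 11.49, 9.26 and 19.17 TPM against 28.10, 33.53 and 16.92 TPM (log2 difference 0.93, limma adjusted p = 0.341). None of the 10 tested enteroendocrine genes was highest in VP replicate 2 and lowest in VP replicate 3, which is near the 2.49% of all tested genes with this pattern. None of the 8 tested transmitter genes without Vip had it either. Of the 38 tested genes of the nervous system lists 3 had it, Vip among them. Pyy and Chgb were both highest in VP replicate 2, then in VP replicate 1, and lowest in Trp53fl/fl replicate 2. The summed epithelial markers were higher in the VP tumors, at 12070 to 13060 against 10630 to 10950 TPM, but such sums follow the most abundant genes. None of the 12 epithelial genes passed, with 10 positive and 2 negative estimates and a median log2 difference of 0.15. Epcam, chosen after its values were seen, was at 1340.45 to 1405.86 TPM in VP and 1158.92 to 1526.33 TPM in Trp53fl/fl tumors. The fibroblast sums, which also follow abundant genes, overlapped, at 694.3 to 1033 TPM in VP against 839.2 to 935.4 TPM in Trp53fl/fl tumors. Of the 7 fibroblast genes, all tested, 2 estimates were positive and 5 negative, and none passed. At an unadjusted limma p-value under 0.05, 3 were lower in VP tumors, as 8.0% of all tested genes were, and 0 higher. The genotypes did not overlap for 3 of the 7, as for 19.3% of all tested genes. The sums of the markers of interstitial cells of Cajal, the pacemaker cells beside the plexus, were 118.6 to 148.8 TPM in the Trp53fl/fl and 146.3 to 195.3 TPM in the VP tumors, and those of leukocytes were 63.8 to 87.8 and 64.0 to 84.2 TPM. Adipocyte sums were 14.45 to 25.07 and 14.2 to 30.2 TPM, with Lep at 0 in all tumors. The part of these cell types in the levels of the 8 genes was not tested.

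The 3 genes with the most similar course over the 6 tumors differed between the 4 measurable genes. Likeness is given as Pearson's r of log2(TPM + 1) over 6 points that share library and scaling, and with so few points many genes reach a high r. Among the genes most like Vip were Scg2, the gene of secretogranin II of neuronal and endocrine vesicles, with r = 0.992, and Mapk12 with r = 0.985. Scg2 was at 2.80, 1.03 and 1.97 TPM in the Trp53fl/fl tumors and 3.37, 4.59 and 1.04 TPM in the VP tumors. Ret was most like the lipid phosphatase gene Plpp3 (r = 0.993), Prorsd1 (r = 0.99) and Ccdc116 (r = 0.99). Uchl1 was most like 1700001O22Rik (r = 0.988), Nudt22 (r = 0.987) and 2210408F21Rik (r = 0.982), and Tubb3 was most like Srsf9 (r = 0.987), C1qbp (r = 0.987) and Smyd5 (r = 0.979). Between 19 and 38 genes had r above 0.95 with each of the 4. None of the 4 genes was among the closest 3 of another, which with so many genes ranked says little about their likeness to each other.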

How the data were processed

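RNA from 6 AOM/DSS colorectal tumors, 3 from Trp53fl/fl and 3 from VP mice, was poly(A)-selected, sequenced from both ends and deposited by the authors as a matrix of TPM per gene with 2 decimals. HISAT2, StringTie and mm9 are named in the submitters' processing notes, without versions. The annotation is not given in the sources used here. TPM keep no read counts, so depth is unknown and no counting interval was computed. Because each tumor is scaled to one total, an abundant transcript lowers the TPM of the rest.

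Tumors were grouped by the genotype in the sample labels, through the column code in each label. From the deposited TPM, log2(TPM + 1) was tested, for genes that reached 1 TPM in 3 or more tumors, with limma 3.58.1 in R 4.3.3 (genotype alone, empirical Bayes with trend, two-sided, Benjamini-Hochberg over all genes tested). The procedure was tested on simulated data. Tables and figures were made in Python 3.11.15 with pandas 2.3.3. Promoters came from RefSeq (GRCm38.p6), and transcripts and overlaps from GENCODE M21 (GRCm38), a different build from mm9, so that no coordinate was joined to the values.

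The 8 genes and all lists were chosen with earlier results of these data known. Per list, the text names genes with an adjusted p-value under 0.05, the most abundant tested gene and the 2 tested genes with the largest absolute difference, per tested gene of the 8 the 3 with the highest r, and Trp53. A gene that this rule names is not reported here. Mbp, Prph, Gdnf, Gfra1, Gfral, Nos1, Chat, Synm, Adcyap1r1, Epcam and Lep lie outside this rule. So do the relatives of the 8 genes given in the text, other than S100a6, Tubb2b and Tubb4a. All genes outside the rule were chosen after their values were seen. Alternatives were a pseudocount of 0.1, no filter or a minimum mean of 5 TPM, quantile normalization, rescaling by median of ratios, values centred on 12 epithelial genes, replicate number as a block, no trend, and omission of single tumors. Each sample was taken as a tumor of its own mouse, and the p-values set the genotype difference against the spread between tumors.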

Additional observations from a re-analysis of the deposited data

How the results depend on the processing

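None of Ret, Uchl1, Tubb3 and Vip, and no listed gene, passed the adjusted threshold under any alternative. With no filter this included S100b, Gfap, Sox10 and Elavl4. Log2 differences ranged from -0.479 to 0.0779 for Ret, 0.0747 to 0.525 for Uchl1, -0.00235 to 0.355 for Tubb3 and 0.163 to 1.65 for Vip, all from leaving out 1 tumor. Ret turned positive without Trp53fl/fl replicate 2 (0.0779) or VP replicate 2 (0.076), and Tubb3 negative without VP replicate 2 (-0.00235). Tubb3 has no value with a mean of at least 5 TPM. Among 15 other named genes, 198 of 205 values kept their direction. Without VP replicate 2, L1cam (-0.0125, range with 1 tumor left out to 0.38) and Actg2 (-0.15, range to 0.907) turned. Vipr2 turned with quantile normalization (0.0118), median-of-ratios rescaling (0.0138) and without Trp53fl/fl replicate 3, VP replicate 2 or VP replicate 3 (0.239, 0.0363 and 0.21, range -0.319 to 0.239). The cause was not tested.

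Over all genes, 25 passed, against 7 without a filter, 44 with epithelial centring, 10 with the replicate block and 6 to 28 with 1 tumor left out (6 without VP replicate 2, 28 without VP replicate 3). The share of calls higher in VP was 48.0%, against 59.1% with median-of-ratios rescaling, 34.1% with epithelial centring and 70.0% with the block. Epithelial centring moved the median of all genes from -0.07 to -0.25. Deviations of same-numbered tumors from their genotype means correlated at 0.0185, -0.052 and 0.0175 over all tested genes. Such correlations cannot show whether these tumors share a batch that acts on some genes. The block changed no call among the 4 tested genes. Unknown depth limits what can be said of genes near 0 TPM.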
